A study of Homo sapiens with 12 samples.

Results

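L1PA3 is a primate subfamily of LINE-1 (L1), a family of retrotransposons that code for the proteins of their own copying. Its full-length loci were taken from the deposited L1 tables as the rows assigned to that subfamily, which gave 1380 of the 6437 listed loci (21.4%). RNA had been sequenced from HAP1, an established near-haploid human cell line whose labelled origin is chronic myelogenous leukemia, and the question was how loss of SETDB1 changes expression. The wild-type group carried no listed alteration and the knockout group was a SETDB1 knockout derivative of the same line. Each group had 3 libraries made with a non-directional kit, in which the strand of the RNA is lost. The labels name no treatment, and they do not state how the knockout was made or whether it was 1 clone, so a difference between genotypes and a difference between derivatives cannot be told apart. Another 6 libraries, made with a directional kit, were not used because no L1 table of theirs was used here.

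A full-length L1 carries its own promoter in the 5′ region, and from it an RNA is made that codes for an RNA-binding protein and for an endonuclease and reverse transcriptase. SETDB1 is a histone H3 lysine 9 methyltransferase that KRAB zinc finger proteins recruit to repeats through the corepressor TRIM28. L1PA3 copies are known in 2 forms, with and without a stretch of the 5′ region that is bound by the KRAB zinc finger protein ZNF93. YY1, a zinc finger transcription factor, is known to bind close to the first base of young L1 elements.

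The lengths of the L1PA3 copies fell into 2 groups. They ranged from 6001 to 8308 bp, with 648 short copies of up to 6087 bp (median 6025 bp), 704 long copies of up to 6245 bp (median 6148 bp) and 28 that were longer. The medians of short and long copies were 123 bp apart. L1PA2, the neighbouring younger subfamily, was nearly all short (96.6% of 981 loci), and L1PA4, the neighbouring older one, was nearly all long (92.3% of 1254 loci). L1PA3 was therefore the subfamily of these 3 in which both forms were common.

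**Figure D1:**
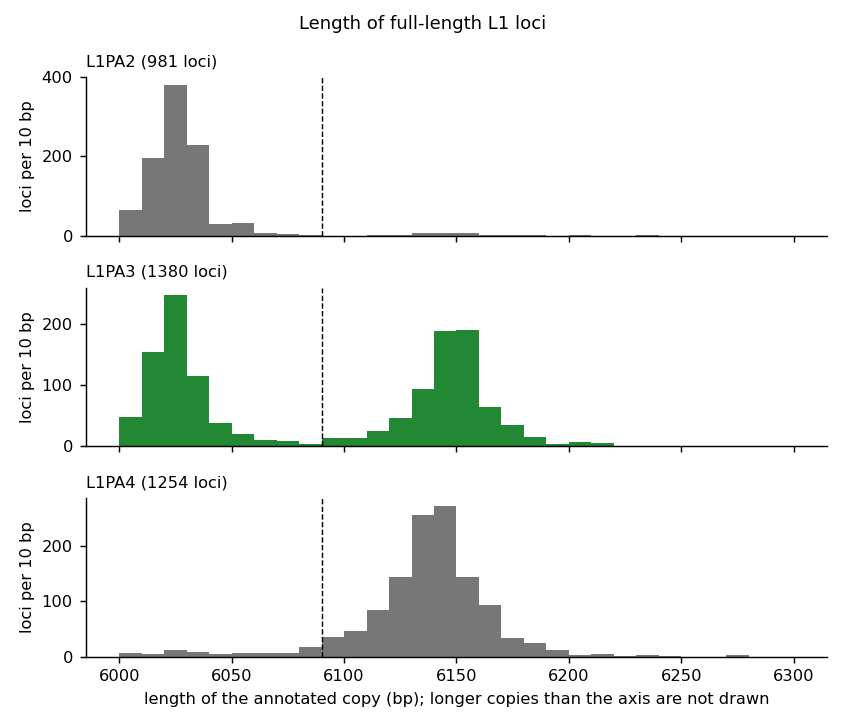
Length of full-length L1PA2, L1PA3 and L1PA4 loci in bins of 10 bp (bars, loci per bin), with the limit between short and long copies as a dashed line. L1PA2 has its peak left of the line, L1PA4 right of it, and L1PA3 has a peak on each side.

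By GENCODE release 29, 53 L1PA3 loci overlapped an exon, 552 lay within introns and 775 lay outside annotated genes. The first 30 bases of the element could be read from the exons of annotated transcripts at 34 loci. An end was taken as the 5′ end only if its first bases held a short word typical of an L1 start. Some of these words overlap the motif searched below, so the choice of loci favoured ends that hold it. The motif AAGATGG, which is the YY1 core site read on the other strand (CCATCTT), was searched on the strand of the element and was present at 31 of the 34 (91.2%), starting between base 2 and base 13 of the element. Searched on both strands, it was held by 1.44% of 35116 RefSeq promoter windows of the same 30 bases at the transcription start and by 5.84% of whole RefSeq promoters of 300 bases (GRCh38). The promoters were not chosen by such words, so their shares are not a matched background. At 21 of the 34 loci the transcript lay on the strand opposite to the element, and at 13 on the same strand.

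Short copies were compared with a single long copy at their start. Of the short copies, 6 could be aligned over 338 to 488 bases with the long copy at chr15:30341197-30347357, and their identity was 92.9 to 94.7% with no gap over 3 bases. The alignments reached at most base 498 of the long copy, so the length difference was not within the stretch that could be read in these copies.

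The knockout was checked on SETDB1 itself and the libraries were compared before the loci were read. SETDB1 had 651, 543 and 519 counts in the wild-type libraries against 118, 106 and 118 in the knockout libraries, with no overlap (edgeR log2 fold change -2.39 with SE 0.079, adjusted p = 7.03e-43). The blood cell markers PTPRC, CD34, CD33, SPI1 and GATA1 had 0 to 2 counts in each library, so defining markers of the labelled leukemia origin were absent or nearly so, while BCR and ABL1, the partners of the fusion gene of that leukemia, were expressed. BCR went from 33.9 ± 1.91 to 53.0 ± 2.06 counts per 1000000 (SD, n = 3 each; edgeR log2 fold change 0.64 with SE 0.063, adjusted p = 6.20e-15) and ABL1 from 14.4 ± 0.960 to 38.2 ± 1.24 (edgeR adjusted p = 8.02e-27), so the wild-type and knockout lines differed at both markers. Gene counts per library ranged from 8921959 to 10199215, and 3 reads corresponded to 0.294 to 0.336 reads per 1000000 gene counts. In these bulk samples, fewer cells with an active locus and less RNA per cell cannot be told apart.

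The knockout libraries lay very close together. Their gene counts differed by no more than sampling noise in any pair (chi-square per degree of freedom 0.956 to 0.991, smallest p = 0.773 by the chi-square test), whereas each wild-type pair differed beyond it (1.03 to 2.00, largest p = 0.00303). The counts cannot show whether the knockout libraries came from separate cultures, so the p-values measure the spread between these libraries, which may be technical. At L1 loci with 1 to 10 reads, 66.2 to 70.8% of the read numbers in each library were even, so both mates of a read pair appear to have been counted at many loci and single reads are not independent. Over the 148 to 224 L1PA3 loci with enough reads in a pair of replicates the chi-square per degree of freedom was 1.65 to 1.85, which with paired mates does not show a difference beyond sampling noise.

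L1PA3 RNA was higher in every knockout library than in any wild-type library. The reads on L1PA3 loci, recovered from the deposited values and summed, numbered 7442, 6115 and 6802 in the wild type against 10252, 9956 and 10364 in the knockout. Scaled to the gene counts of the same library, they were 730, 685 and 724 reads per 1000000 gene counts in the wild type against 1049, 1016 and 1020 in the knockout. The mean was 713 ± 24.1 against 1028 ± 18.0 (SD, n = 3 each), a log2 difference of 0.53 (SE 0.032, two-sided exact permutation p = 0.1, the smallest that 3 against 3 libraries can give, so that no comparison of sums here can pass 0.05). Summed as deposited, with the authors' factor per library, the values gave a smaller log2 difference of 0.17. L1PA3 held 23.7 to 24.6% of all L1 reads in each of the 6 libraries.

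The ratio of knockout to wild type was larger in the short form than in the long form. Short copies held 412, 389 and 393 reads per 1000000 gene counts in the wild type against 630, 598 and 607 in the knockout, 1.54 times the wild-type mean. Long copies held 305, 285 and 319 in the wild type against 406, 405 and 400 in the knockout, 1.33 times the wild-type mean. The groups did not overlap in either form. The log2 ratio of short to long reads went from 0.40 ± 0.081 in the wild type to 0.60 ± 0.036 in the knockout (SD, n = 3 each), a difference of 0.20 (SE 0.051, exact permutation p = 0.1, 0.133 adjusted over the 12 ratios of this kind that were computed). The 28 longer copies had 11.6 ± 0.692 against 13.1 ± 0.480 reads per 1000000 gene counts. Short copies also had the larger ratio in L1PA2 (1.94 for 948 short and 1.49 for 29 long copies). In L1PA4 the ratios were 1.49 for 73 short and 1.35 for 1158 long copies. The order was thus not particular to L1PA3, and it was not tested in these 2 subfamilies.

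The libraries were separated in this ratio among copies within genes and overlapped among copies outside genes. Within genes the short copies were 1.48-fold and the long copies 1.24-fold higher in the knockout, and the log2 ratio of short to long was higher by 0.25 (SE 0.044, exact permutation p = 0.1). Outside genes the short copies were 1.63-fold and the long copies 1.53-fold higher, and the ratio was higher by 0.09 (SE 0.113, exact permutation p = 0.8) with overlapping groups. Whether the 2 sets differ in this was not tested. In the latter set wild-type replicate 3 had a log2 ratio of 0.50, below the 0.83 of both other wild-type libraries.

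The ratio of knockout to wild type was larger outside genes than within genes. The intergenic loci held 263, 231 and 254 reads per 1000000 gene counts in the wild type against 397, 399 and 395 in the knockout, 1.59 times the wild-type mean. The loci within genes held 467, 454 and 470 in the wild type against 652, 616 and 625 in the knockout, 1.36 times the wild-type mean. The groups did not overlap in either set, and the log2 ratio of genic to intergenic reads fell by 0.23 (SE 0.048, exact permutation p = 0.1, 0.133 adjusted). Intronic and exonic copies had 413 ± 9.75 against 556 ± 17.8 and 51.1 ± 1.66 against 74.7 ± 0.763 reads per 1000000 gene counts. A read on a copy within a gene may come from the host transcript, and the tables do not separate these sources.

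**Figure D2:**
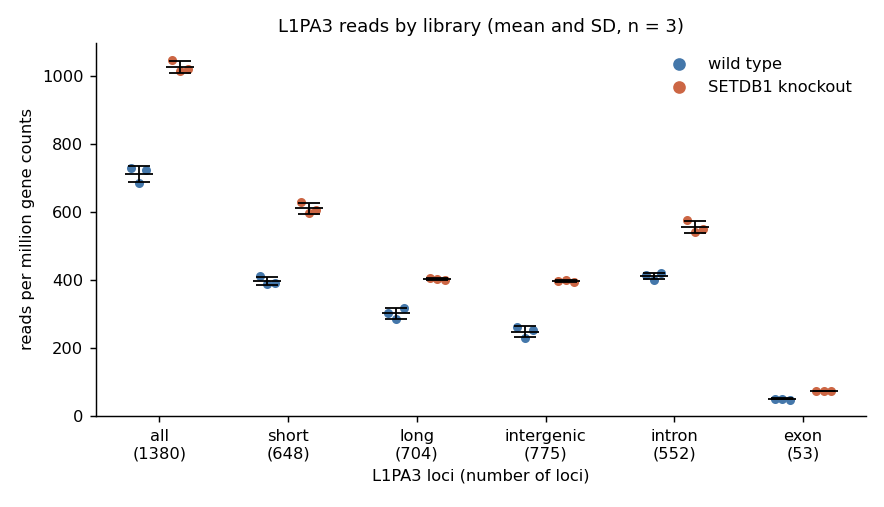
Summed reads on L1PA3 loci per 1000000 gene counts in each library (points), with the mean and SD of 3 libraries, for all loci, short and long copies, and intergenic, intronic and exonic copies. In each of the 6 sets all knockout points lie above all wild-type points.

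Against its neighbours, the L1PA3 change was nearer to that of the older subfamily. The log2 ratio of L1PA3 to L1PA2 reads fell from 0.50 ± 0.031 to 0.08 ± 0.013, a difference of -0.42 (SE 0.019, exact permutation p = 0.1, 0.133 adjusted), with L1PA2 1.93-fold higher. The ratio to L1PA4, which was 1.35-fold higher, went up by 0.09 (SE 0.017, exact permutation p = 0.1, 0.133 adjusted). Among intergenic loci the difference from L1PA4 had the other sign. There L1PA3 was 1.59-fold higher, less than L1PA4 at 1.84-fold and L1PA2 at 2.35-fold, with differences of -0.21 (SE 0.073) and -0.56 (SE 0.049) on the log2 scale and no overlap of the libraries.

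Copies of like length were compared as well. Short L1PA3 copies had a smaller log2 change than short L1PA2 copies, with a difference of -0.34 (SE 0.011, exact permutation p = 0.1). Long L1PA3 copies and long L1PA4 copies differed by -0.02 (SE 0.044, exact permutation p = 1.0), and the libraries of the 2 groups overlapped.

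**Figure D3:**
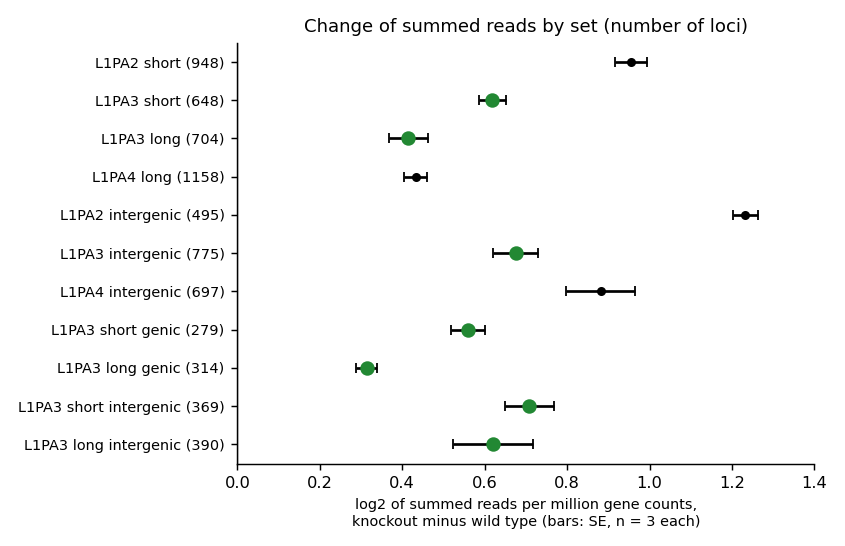
Change of summed reads per 1000000 gene counts on the log2 scale, knockout minus wild type, with SE (n = 3 libraries each), for sets of loci of L1PA3 (green) and its neighbours (black). Long L1PA3 copies lie beside long L1PA4 copies at 0.41 and 0.43, short L1PA3 copies at 0.62 lie below short L1PA2 copies at 0.95, and intergenic L1PA3 copies at 0.67 lie lowest of the 3 intergenic sets.

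The higher level was spread over most chromosomes. On 16 of 24 chromosomes the L1PA3 sum of every knockout library was above that of every wild-type library, on 8 the libraries overlapped, and on none were they separated downward. The same count was not made for the L1 loci other than L1PA3, which were 1.42-fold higher as a sum. The highest L1PA3 ratios were 2.21-fold on chromosome 19, which has 12 copies, and 1.93-fold on chromosome 14, which has 40. On chromosome 19 a single copy, described below, held 452 of the 596 wild-type reads and 1098 of the 1376 knockout reads. Chromosome 6 with 90 copies had a ratio of 1.00 (69.3 ± 1.23 against 69.3 ± 4.56 reads per 1000000 gene counts), while chromosome 21 with 9 copies had one of 0.68 (14.1 ± 3.78 against 9.60 ± 3.05) with overlapping libraries. Each of these 2 chromosomes holds a high-read copy with a negative fold change that is described below. The 143 copies on X had 50.6 ± 6.69 against 74.4 ± 3.27. Without the copies on chromosomes 1 and 9, whose genes had median log2 fold changes of -0.15 and 0.09, L1PA3 was 1.44-fold higher. Chromosome 19, whose genes had a median of 0.12, was kept in that sum.

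Most copies were covered by few reads. A read was found in at least 1 library at 1328 of the 1380 loci and in every library at 369, and 52 loci had none. Reads were present only in knockout libraries at 183 loci (13.8% of those with a read, against 17.8% of all L1 loci with a read) and only in wild-type libraries at 52 (3.92%, against 8.24%). All 3 knockout libraries and no wild-type library had a read at 55 loci (4.14%, against 2.58% of all L1 loci), and the reverse held at 5 (0.377%, against 0.241%). The 10 loci with the most reads held 17.5% of all L1PA3 reads. Among loci with a read, 234 (17.6%) had all knockout libraries above all wild-type libraries, against 15.4% of all L1 loci with a read, and 38 (2.86%) were separated downward, against 2.45% of all L1 loci. The upward share was 24.0% of 641 short copies and 11.5% of 661 long copies.

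A mean of at least 10 reads over the 6 libraries, which was required for the test of single loci, was reached by 185 L1PA3 loci, of which 109 were short, 74 long and 2 longer. They held 66.4% of the L1PA3 reads. The 5 loci just inside this limit had means of 10.0 to 10.2 reads and the 5 just outside 9.67 to 9.83. The sum of the 185 was 1.34-fold and that of the 1195 others 1.68-fold higher in the knockout, and the log2 ratio of the 2 sums fell by 0.33 (SE 0.081, exact permutation p = 0.1). Under the limit the short copies were 1.84-fold and the long copies 1.53-fold higher. The log2 ratio of short to long reads was higher there by 0.26 (SE 0.104, exact permutation p = 0.2), with overlapping groups.

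Of the 185 loci, 71 passed an adjusted p of 0.05 in limma, 62 of them higher in the knockout and 9 lower. Many of the 62 had wild-type means under 10 reads and reached the limit only through the knockout. Several of the 9 reached it only through the wild type. The numbers and shares called, also by form and position, therefore depend in part on the limit. Differences between these shares were not tested. Over all 764 L1 loci tested the shares were 27.6% higher and 3.8% lower. Of the short copies 49 of 109 (45.0%) rose and 4 fell, and of the long copies 13 of 74 (17.6%) rose and 5 fell. By position, 23 of 45 intergenic copies (51.1%), 32 of 119 intronic copies (26.9%) and 7 of 21 exonic copies (33.3%) rose. The median log2 fold change was 0.44 over the 185 loci and 0.35 over all L1 loci tested. On the values as deposited, which the authors had divided by a factor per library that takes up part of a shift shared by all L1 loci, 26 loci were higher and 16 lower, so the share of higher calls was 61.9% in place of 87.3%. The edgeR test on recovered reads called 65 higher and 9 lower, among them all 62 and all 9 of limma, and 28.8% and 3.93% of all L1 loci. When the reads of the 3 knockout libraries were pooled into 1 sample, assumed to vary like the wild-type libraries, limma called 21 L1PA3 loci, 16 higher and 5 lower. The libraries were fully separated upward at 74 of the 185 (40.0%, against 36% of all L1 loci tested) and downward at 14 (7.57%, against 6.94%).

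**Figure D4:**
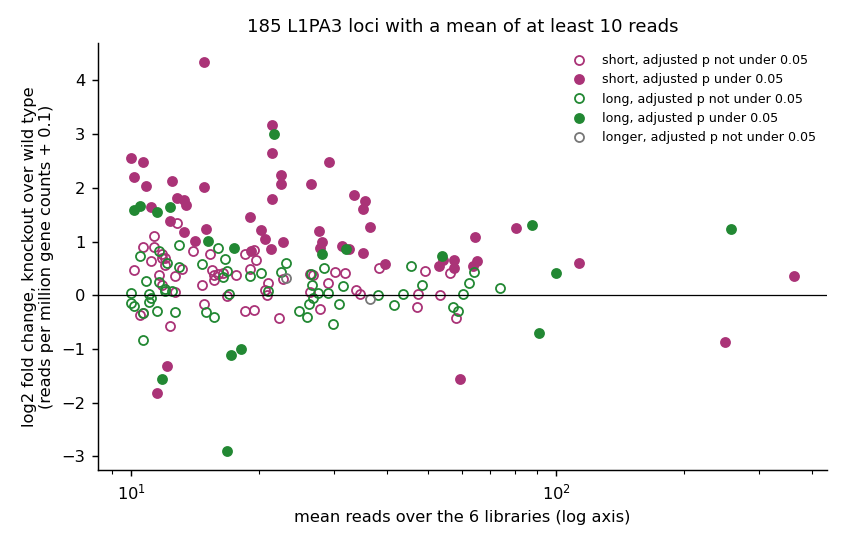
Log2 fold change of each of the 185 tested L1PA3 loci, knockout over wild type, on the scale of log2(reads per 1000000 gene counts + 0.1), against its mean reads over the 6 libraries on a log axis. Filled points passed a limma adjusted p of 0.05, 62 above 0 and 9 below, and the highest points are mostly short copies (purple).

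The sum gained 315 reads per 1000000 gene counts. The 62 copies that rose gained 53.9% of this net sum, the 1195 copies under the limit 47.1%, and the 10 largest single gains made up 22.2%. Losses are taken off in the net sum and these sets overlap, so the shares are not parts of a whole. The 62 and the 10 were picked by their change in these same values, which favours large shares. The mean was higher in the knockout at 968 L1PA3 loci and lower at 360. This count was not made over all L1 loci, so it is not a trait of L1PA3. As sums, L1PA3 was 1.44-fold and all other L1 loci 1.42-fold higher.

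Of the 8 largest rises 7 were at short copies. All 8 had wild-type means under the limit of 10 reads and so reached it only through the knockout, which means that their low wild-type level follows from the limit and the ranking. The largest was the copy at chr14:40948917-40954934, whose 5′ end lies in an exon of the noncoding RNA gene LINC02315 on the opposite strand. It had 0, 2 and 0 reads in the wild-type libraries and 30, 33 and 24 in the knockout libraries. The ratio of the sums, scaled by gene counts, was 41.7. All knockout libraries lay above all wild-type libraries (log2 fold change 4.34, SE 0.81, limma adjusted p = 0.000199, a value that depends on the pseudocount). LINC02315 itself had 0, 1 and 0 counts against 16, 16 and 11, a ratio of 41.2 with an exact 95% interval of 7.02 to 1666 that covers counting error only. Gene and copy moved together, but the exon overlaps the copy, so the same read pairs may have been counted for both. The values may therefore not be separate measurements, and the parts of gene and copy cannot be told apart without strand.

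A pair of intergenic copies followed. The short copy at chr5:25077654-25083685 had 4, 2 and 4 reads in the wild type against 44, 26 and 49 in the knockout, a log2 fold change of 3.18 (SE 0.39, limma adjusted p = 1.29e-06). The long copy at chr4:43092868-43099023 had 6, 2 and 4 against 28, 38 and 52, a log2 fold change of 3.01 (SE 0.38, limma adjusted p = 1.81e-06). In both the lowest knockout library was far above the highest wild-type library. No annotated gene covers either copy.

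The short intergenic copy at chr10:91749616-91755638 had 9, 3 and 4 reads in the wild type against 28, 39 and 46 in the knockout (log2 fold change 2.65, SE 0.36, limma adjusted p = 4.84e-06). The short copy at chrX:126104125-126110137, in an exon of AL445072.1 on the opposite strand, had 4, 0 and 4 against 9, 22 and 21 (log2 fold change 2.55, SE 0.80, limma adjusted p = 0.0167). The short intergenic copy at chr14:57338083-57344117 had 3, 2 and 2 against 22, 24 and 11 (log2 fold change 2.49, SE 0.63, limma adjusted p = 0.00359). The libraries were separated at all 3, but the X copy lost its call without knockout replicate 2 (adjusted p = 0.116) or knockout replicate 3 (adjusted p = 0.112), and the chromosome 14 copy without knockout replicate 1 (adjusted p = 0.0516) or knockout replicate 2 (adjusted p = 0.0535), all by limma.

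The other named rises lay in introns of noncoding genes. The short copy at chr4:129853906-129859930 in LINC02465 had 4, 10 and 11 reads in the wild type against 40, 54 and 56 in the knockout (log2 fold change 2.48, SE 0.33, limma adjusted p = 3.36e-06). LINC02465 had 0 exonic counts in all libraries. The short copy at chr19:12004812-12010815 in ZNF433-AS1, an antisense gene of a zinc finger locus, had 5, 10 and 6 against 40, 27 and 47 (log2 fold change 2.24, SE 0.34, limma adjusted p = 1.41e-05). ZNF433-AS1 rose too, from 68, 55 and 49 counts to 140, 117 and 141 (edgeR log2 fold change 1.14 with SE 0.13, adjusted p = 2.77e-12), and its part in the rise of the copy was not tested.

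Of the 9 copies that fell, the 6 with the largest falls are named here. The long intergenic copy at chr1:165084966-165091110 had 23, 24 and 44 reads in the wild type against 4, 2 and 4 in the knockout (log2 fold change -2.89, SE 0.44, limma adjusted p = 1.71e-05). All knockout libraries lay below all wild-type libraries. The 57 genes tested within 5 Mb of this copy centred on a log2 fold change of -0.52 (median) and 5.26% of them were higher in the knockout, so the copy lies in a stretch of genes that was lower as a whole. Its own fold change was larger than that median.

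At 4 of the 6 the copy lay in a gene that fell as well. The short copy at chr15:53684200-53690229 in an exon of WDR72, a WD repeat gene, had 19, 22 and 14 reads against 5, 5 and 4 (log2 fold change -1.81, SE 0.46, limma adjusted p = 0.00344, and 0.0710 without wild-type replicate 2), and WDR72 had 123, 100 and 120 counts against 16, 16 and 14 (log2 fold change -2.96, SE 0.18). The long copy at chr4:54243581-54249798 in PDGFRA, the gene of a receptor tyrosine kinase for platelet-derived growth factor, had 16, 16 and 22 against 6, 5 and 6 (log2 fold change -1.56, SE 0.42, limma adjusted p = 0.00597), and PDGFRA had 600, 535 and 550 against 194, 189 and 198 (log2 fold change -1.60, SE 0.068). Copy and gene changed by a like amount in PDGFRA.

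The short copy at chr12:44681418-44687432 in an intron of NELL2, which codes for a secreted protein with EGF-like repeats, had 17, 14 and 22 reads against 6, 7 and 7 (log2 fold change -1.32, SE 0.40, limma adjusted p = 0.0131, and 0.0717 without wild-type replicate 3), beside -1.65 (SE 0.088) for NELL2. The long copy at chr6:101788210-101794361 in an intron of GRIK2, a glutamate receptor subunit gene, had 23, 22 and 22 against 16, 16 and 4 (log2 fold change -1.10, SE 0.39, limma adjusted p = 0.0348), beside -0.67 (SE 0.071) for GRIK2. Most of the GRIK2 copy's fall came from knockout replicate 3, without which the log2 fold change was -0.50 (limma adjusted p = 0.289), and it also lost its call without any 1 of the wild-type libraries (adjusted p = 0.0603 to 0.121).

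The short intergenic copy at chrX:149334010-149340027 had 110, 72 and 78 reads in the wild type against 18, 28 and 51 in the knockout. The libraries did not overlap (log2 fold change -1.56, SE 0.26, limma adjusted p = 4.68e-05). It was a fall in a stretch whose 41 tested genes centred on 0.13 (median log2 fold change).

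The 6 copies with the most reads varied in direction. The most covered copy, at chr9:92214409-92220428 in an intron of IARS, the gene of isoleucyl-tRNA synthetase, had 346, 280 and 307 reads against 442, 375 and 431. This gave a log2 fold change of 0.36 (SE 0.090, limma adjusted p = 0.00331), beside 0.35 for IARS (SE 0.024, adjusted p = 2.36e-22 by edgeR). On the deposited values the copy's log2 fold change was 0.0041 (limma adjusted p = 0.976). It held 4.28% of all L1PA3 reads.

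The next was the long intergenic copy at chr19:20807725-20813827, with 148, 121 and 183 reads against 395, 322 and 381 (log2 fold change 1.23, SE 0.13, limma adjusted p = 7.35e-08). The short intergenic copy at chr6:30080600-30086625 went the other way, with 342, 319 and 291 against 195, 161 and 187 (log2 fold change -0.87, SE 0.11, limma adjusted p = 1.35e-06). Both were separated in all libraries, and each was the copy with the most reads outside genes in its direction of change.

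The other 3 changed less. The short intergenic copy at chr2:173527290-173533317 had 106, 79 and 79 reads against 140, 122 and 155 (log2 fold change 0.60, SE 0.15, limma adjusted p = 0.00308, and 0.231 on the deposited values). The long copy at chr8:79982277-79988432 in an intron of MRPS28, a mitochondrial ribosomal protein gene, had 88, 83 and 80 against 119, 116 and 114 (log2 fold change 0.41, SE 0.15, limma adjusted p = 0.0354), while the edgeR log2 fold change of MRPS28 was -0.02 with SE 0.12 (adjusted p = 0.915). The long intergenic copy at chr21:8767451-8773597 had 74, 139 and 122 against 75, 91 and 47, with overlapping groups (log2 fold change -0.71, SE 0.24, limma adjusted p = 0.0248). The MRPS28 copy was separated in all libraries but lost its call without any 1 library other than wild-type replicate 2 (limma adjusted p = 0.0695 to 0.0993), and the chromosome 21 copy lost it without wild-type replicate 2 (adjusted p = 0.232), wild-type replicate 3 (0.160) or knockout replicate 3 (0.195). Across the alternatives run, the log2 fold change of the MRPS28 copy went as low as 0.06.

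When the knockout libraries were pooled in this way, 9 of the 20 named copies lost their call (limma adjusted p = 0.0568 to 0.317). These were the LINC02315 and AL445072.1 copies, the copy at chr14:57338083-57344117, the NELL2, GRIK2, IARS and MRPS28 copies and the chromosome 2 and 21 copies. The other 11 kept it, and all 20 kept their sign.

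**Figure D5:**
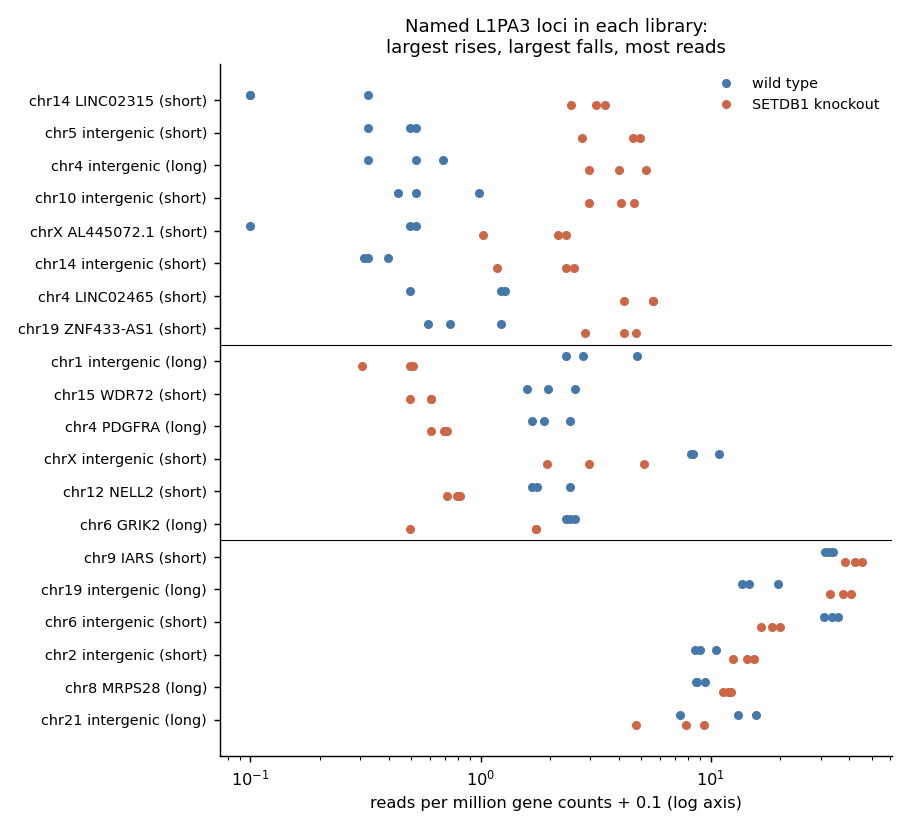
Reads per 1000000 gene counts + 0.1 on a log axis for the 20 named L1PA3 loci in each wild-type (blue) and knockout (orange) library, with the 8 largest rises at the top, the 6 largest falls in the middle and the 6 copies with the most reads at the bottom. The groups are apart in every line except that of the chromosome 21 copy, where 75 knockout reads lie beside 74 wild-type reads.

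Among the copies whose first bases could be read, both forms held copies that were not called higher in limma. Of the 34 copies with a read 5′ end, 15 reached the limit for the test, and 6 of them rose and 2 fell, beside 27.6% higher and 3.8% lower over all L1 loci tested. All 6 that rose had wild-type means under 10 reads and reached the limit only through the knockout. The 2 that fell reached it only through the wild type. The counts of rises and falls among the 15 thus depend in part on the limit. Of the 10 short copies tested 6 rose, 1 fell and 3 did not pass the threshold, and of the 5 long copies 1 fell and 4 did not pass. The difference between the forms was not tested in these 15 copies. All 6 that rose faced a transcript on the opposite strand, of 12 such. All 10 tested short copies lay opposite to their transcript, and the 3 tested on the same strand were long. Strand and form therefore cannot be told apart here. Beside the LINC02315 and AL445072.1 copies, the AC007128.2 copy (chr7:8298114-8304140) had 6, 6 and 12 reads against 30, 36 and 45 (log2 fold change 2.07, SE 0.32, limma adjusted p = 2.13e-05). The AC034154.1 copy (chr4:97633480-97639503) had 5, 4 and 2 against 19, 16 and 19 (log2 fold change 2.04, SE 0.52, limma adjusted p = 0.0043). The TBCK copy (chr4:106213355-106219380) had 9, 7 and 1 against 14, 20 and 16 (log2 fold change 1.65, SE 0.57, limma adjusted p = 0.029), and TBCK, a gene of a protein with kinase-like and TBC domains, had a log2 fold change of 0.46 (SE 0.12). At all of these the libraries were separated.

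AAGATGG was present in copies of either form that were not called higher in limma. Of the short ones, the copies in LRRTM4 and MIR4713HG did not pass the threshold (log2 fold change 1.10 and 0.36, limma adjusted p = 0.0502 and 0.536), and the WDR72 copy described above fell. The LRRTM4 copy lay close to the threshold. Its knockout libraries were all above its wild-type libraries, and edgeR called it higher (adjusted p = 0.0382). Of the long ones, the PDGFRA copy fell, and those in DST and AC019322.4 did not pass (log2 fold change 0.82 and -0.30, limma adjusted p = 0.276 and 0.580), nor did those in DCTN4, a dynactin subunit gene, and NEO1, the gene of the receptor neogenin. The DCTN4 copy (chr5:150742838-150748950) had 58, 59 and 57 reads against 73, 43 and 73 (log2 fold change 0.02, SE 0.21, limma adjusted p = 0.969). The NEO1 copy (chr15:73215935-73222082) had 31, 22 and 14 against 19, 37 and 36 (log2 fold change 0.39, SE 0.30, limma adjusted p = 0.356). The short AC007780.1 copy (chr17:68408124-68414142), without AAGATGG in its first 30 bases, had 11, 17 and 21 against 19, 10 and 23 (log2 fold change -0.01, SE 0.35, limma adjusted p = 0.991). In the DCTN4, NEO1 and AC007780.1 copies the groups overlapped.

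Host genes moved with part of the genic copies. Of the 39 copies within genes that rose, 20 had an overlapping gene that rose as well by edgeR, 8 one that did not pass the threshold, 2 one that fell and 9 no gene that could be tested. All 4 genic copies that fell lay in a gene that fell. Among the tested genic copies that were not called, 21 had an overlapping gene that rose and 24 one that fell. Of the rest of these, 46 had one that did not pass and 6 no gene that could be tested. For comparison, 25.5% of all 13778 genes tested were higher in the knockout and 25.9% lower. The part of the host transcripts in the rise of the genic copies was not tested, while the copies outside genes were 1.59-fold higher as a sum.

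On chromosome 9, 10 of 12 tested copies (83.3%) were higher and none lower in limma, beside 14 of the 31 other L1 loci tested there (45.2%) and 27.6% of all L1 loci tested. Of these 10, 8 lay where the median over the tested genes within 5 Mb, on the log2 scale, was 0.30 to 0.41, and 2 where it was -0.07 and 0.02. The 10 copies had log2 fold changes of 0.36 to 2.13. Of the 10, 4 lay in introns of CBWD family genes, near-identical duplicates of one another. Together with the copy in CBWD2 on chromosome 2, 5 of the 6 L1PA3 copies in this family rose 1.43-fold to 1.57-fold (limma adjusted p at most 0.0485). How reads were shared among such copies is uncertain, so the 5 may not be separate observations.

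Genes known to act on L1 changed in both directions. Of 32 listed genes other than SETDB1, 29 could be tested, and 12 were higher and 9 lower in the knockout by edgeR. Among all genes tested 51.5% changed in either direction. The largest change was in ZNF93, which had 6, 4 and 5 counts in the wild type against 261, 237 and 258 in the knockout (edgeR log2 fold change 5.55 with SE 0.19, adjusted p = 5.21e-42). This rise stood beside the smaller change of the long copies, and its part in that difference was not tested.

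Of the partners of SETDB1, ATF7IP, which stabilises it in the nucleus, rose from 57.2 ± 0.801 to 177 ± 5.13 counts per 1000000 (SD, n = 3 each; log2 fold change 1.62, SE 0.044), and TRIM28 fell by 0.11 on the log2 scale (SE 0.025). Of the HUSH complex and MORC2, which silence young L1 copies, TASOR (listed as FAM208A), PPHLN1 and MORC2 rose with log2 fold changes of 0.30, 0.18 and 0.27, and MPHOSPH8 had -0.06 (edgeR adjusted p = 0.299). SUV39H1, another histone H3 lysine 9 methyltransferase, fell by 0.74 (SE 0.059), and the other 3 listed enzymes of that kind did not pass the threshold.

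Among DNA methylation genes DNMT3B, a de novo methyltransferase, had a log2 fold change of 0.43 (SE 0.059), the maintenance methyltransferase DNMT1 -0.23 (SE 0.029) and its partner UHRF1 -0.19 (SE 0.031), all past the edgeR threshold. YY1 fell by 0.09 (SE 0.035, edgeR adjusted p = 0.0374) and RUNX3, another activator of the L1 promoter, by 0.28 (SE 0.061). Of genes that restrict L1 at the RNA or cDNA level, APOBEC3C fell from 40, 42 and 47 counts to 4, 6 and 4 (edgeR log2 fold change -3.24 with SE 0.31, adjusted p = 1.44e-15), ADAR fell by 0.47 (SE 0.027), and SAMHD1 and AGO2 rose by 0.49 (SE 0.034) and 0.40 (SE 0.033) on the log2 scale. The list thus held no single direction, with a median of -0.0038 on the log2 scale beside -0.0012 over all genes.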

How the data were processed

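Gene and L1 expression were measured by RNA sequencing in 3 wild-type and 3 SETDB1 knockout non-directional libraries, grouped and numbered by their titles, which call the replicates biological without further detail. The publication named in the header does not describe these libraries, so no method or value was taken from it. The authors deposited raw gene counts and, per L1 locus, a signal normalised by one factor per library. The submitters' processing notes name Trim Galore 0.4.4, STAR 2.6.0a, SAMtools 1.9, Picard 2.23.8, HTSeq 0.11.1, DESeq2 (written there as 3.14), bedtools and hg38. Their order, the treatment of reads that align to several copies and the source of the locus list are not given in the sources used here. Since young L1 copies are near-identical, this can move reads between loci.

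All values of the L1 tables (100%, tolerance 0.01) were whole multiples of the smallest non-zero value, so reads were recovered by division and scaled by the gene counts of the same library, leaving out closing lines that name no gene (19.6 to 19.7% of listed reads). All 58735 gene IDs matched GENCODE release 29. Locus positions are as listed. At 2 plus-strand loci the run of G that opens an L1 began exactly at the listed start when counted from 1. Loci with a mean of at least 10 reads were tested with limma 3.58.1 (lmFit, eBayes with trend) on log2(reads per 1000000 gene counts + 0.1), which understates the change of low loci, with Benjamini-Hochberg adjustment over all 764 loci tested. Genes were tested with edgeR 4.0.16 (quasi-likelihood, filterByExpr, TMM) in R 4.3.3, DESeq2 1.42.0 served as an alternative, and sums were compared by two-sided exact permutation tests in SciPy 1.17.1. The fits were tested on simulated data. The chi-square test of replicates took genes or loci with at least 20 reads in both libraries together. Alternatives changed the pseudocount, the filter, the scaling, the test and the libraries.

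Named loci were the 8 largest rises and 6 largest falls past the threshold and the 6 loci with the most reads, and named genes were SETDB1, the L1 regulator list and genes overlapping a named locus. Loci with a read 5′ end, the CBWD copies and the comparisons of like lengths and of intergenic subsets were added after the values had been seen. Members and lists were chosen with earlier results of these data known. Same-numbered libraries did not deviate together over the 764 loci (correlations -0.0048, 0.034 and -0.0096), so replicate numbers were not used to pair them. The element sequences themselves are not reported here.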

Additional observations from a re-analysis of the deposited data

How the results depend on the processing

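The L1PA3 sum (log2 difference 0.53) kept its direction under every alternative run, from 0.17 on the deposited values to 0.67 for loci outside genes. With the 3 knockout libraries pooled into 1, an alternative chosen after seeing the data because their gene counts lie very close together, it was 0.53, and limma called 21 loci (16 higher and 5 lower). Without 1 library the ranges were 0.50 to 0.55 for the sum, -0.43 to -0.40 for L1PA3 against L1PA2, 0.08 to 0.11 against L1PA4, 0.16 to 0.23 for short against long and -0.26 to -0.19 for genic against intergenic. The number of L1PA3 loci called (71) was 42 on the deposited values, with 26 higher and 16 lower, and 47 to 63 without 1 library, with 38 to 57 higher and 5 to 9 lower. The lowest counts, 47 called and 38 higher, came without knockout replicate 1, and the 5 lower without wild-type replicate 2. DESeq2 called 57 loci, filterByExpr gave 81 and no filter 53. With the replicate number as a block 67 loci were called (58 higher and 9 lower), the L1PA3 sum was unchanged at 0.53, and the MRPS28 copy lost its call (limma adjusted p = 0.0607). No named locus changed sign under the 17 alternatives, and of 339 values 300 kept their side of the threshold and 39 lost it. The number of regulator genes called lay between 19 and 21. Depth limits single loci: 1195 of the 1380 copies had a mean under 10 reads.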
